A study of Rattus norvegicus with 11 samples.

Results

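Tnf, the enzyme that releases it, its receptors and the proteins those receptors recruit were followed as 9 genes (Tnf, Adam17, Tnfrsf1a, Tnfrsf1b, Traf1, Traf2, Ripk1, Birc3 and Cflar) in RNA-seq of rat calvarial defects. The genes were chosen by symbol from the 23781 genes in the tables, and all 9 of them passed the filter on low counts that left 18049 genes for testing. Male SD rats, 4 months old per the labels, received a suture-bony composite defect of the calvaria, and tissue was taken 6 weeks after surgery from defects that held PLA (an electrospun poly(L-lactide) membrane, 2 libraries), CTS (a chitosan hydrogel, 3 libraries), GelMA (a methacrylated gelatin hydrogel, 3 libraries) or no scaffold (NC, 3 libraries). The tissue was digested with collagenase and Cd45- cells were sorted before RNA was extracted, so every group shares the digestion, the fixation and the sort. The labels do not say whether the libraries of a group came from separate animals, so p-values measure the spread between these libraries, which may be technical.

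Tnf is made as a protein of the cell surface, and the protease Adam17 cuts it free. Tnfrsf1a is found on most cell types and carries a death domain, through which it recruits Tradd and Ripk1. Tnfrsf1b is found mainly on immune and endothelial cells, lacks a death domain and binds Traf2 directly. Traf2 brings in the ubiquitin ligases Birc2 and Birc3, and the chains they build activate NF-kB, which in turn induces Tnf, Traf1, Birc3, Cflar and inhibitors such as Tnfaip3 and Nfkbia. Where that arm fails, the receptor complex can pass to caspase-8, which the product of Cflar restrains. In the skeleton Tnf is known for driving osteoclast formation and for restraining osteoblasts.

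Library totals were 30932534 and 30150370 counts in PLA and ranged from 28377088 to 31290849 in CTS, from 29108144 to 30587865 in GelMA and from 22509898 to 27522199 in NC. Levels are CPM, counts scaled to a common library total after TMM, a factor that corrects each library for its composition, or FPKM, the deposited value per gene length, where genes are compared with each other. Calls required an adjusted p (Benjamini-Hochberg, over every gene tested) under 0.05 in edgeR's quasi-likelihood test together with a log2 fold change above 1 or below −1. The sort was checked on Ptprc, which encodes Cd45. Ptprc stood at 1020 and 1055 CPM in PLA, at 1272, 1184 and 1036 in CTS, at 1347, 1138 and 1260 in GelMA and at 1460, 336 and 1167 in NC, so the transcript of the excluded marker was present in every library. NC replicate 2 stood apart, with the lowest summed leukocyte markers of all libraries (979 CPM) and the highest summed fibroblast and mesenchyme markers. In such mixed samples, a change in the number of cells of a type and a change in RNA per cell cannot be told apart.

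Promoter sequences of the GRCr8 assembly were at hand for 8 of the 9 genes, and Birc3 had none among them. The RefSeq gene list held all 9. The 200 bases before the start are shown 5′ to 3′ for the ligand, for both receptors, of which 1 was called higher in PLA and the other was not, and for Traf1. Capitals mark a match to the TATA box (TATAAA) or to AP-1 (TGANTCA), searched on both strands together with the kappa B motif. The positions are those of GRCr8 and not of the mRatBN7.2 assembly to which the reads were aligned.
Tnf, chr20:3626485-3626684, plus strand: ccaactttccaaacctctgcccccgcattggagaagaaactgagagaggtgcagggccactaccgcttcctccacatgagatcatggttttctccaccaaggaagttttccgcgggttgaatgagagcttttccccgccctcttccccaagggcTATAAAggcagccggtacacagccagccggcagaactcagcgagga
Tnfrsf1a, chr4:159836919-159837118, plus strand: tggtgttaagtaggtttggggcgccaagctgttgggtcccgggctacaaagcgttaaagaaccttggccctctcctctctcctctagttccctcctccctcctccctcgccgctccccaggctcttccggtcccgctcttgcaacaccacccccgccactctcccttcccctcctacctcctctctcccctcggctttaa
Tnfrsf1b, chr5:162387412-162387611, minus strand: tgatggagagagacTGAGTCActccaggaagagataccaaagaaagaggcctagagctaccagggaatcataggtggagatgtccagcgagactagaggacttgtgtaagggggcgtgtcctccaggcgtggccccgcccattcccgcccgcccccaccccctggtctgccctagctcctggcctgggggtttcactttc
Traf1, chr3:38635771-38635970, minus strand: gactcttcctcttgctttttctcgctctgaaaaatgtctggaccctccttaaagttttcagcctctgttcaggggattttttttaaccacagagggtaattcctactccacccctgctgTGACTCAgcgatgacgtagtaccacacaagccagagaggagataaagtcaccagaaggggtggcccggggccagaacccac
The TATA box of Tnf began 46 bases before the start, and 10.4% of 33469 promoters of the same length held such a match. The AP-1 match lay 186 bases before the start of Tnfrsf1b and 81 before that of Traf1, and 4.97% of promoters held one, against 2 of the 8 shown or searched here. The kappa B motif was found in 2.87% of promoters and in 0 of these 8. A match describes these letters only, and its absence from this window says nothing of a factor's binding elsewhere.

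In PLA, 6 of the 9 genes were higher than in NC, the same 6 were higher than in GelMA and higher than in CTS, and 0 were lower in any of the 3 comparisons. They were Tnf, Adam17, Tnfrsf1b, Traf1, Birc3 and Cflar, while Tnfrsf1a, Traf2 and Ripk1 were not called. Of all genes tested, 8.32% were called higher and 4.01% lower in PLA against NC, 4.61% and 1.47% in PLA against GelMA, and 6.42% and 3.53% in PLA against CTS. The median log2 fold change of the 9 genes was 2.38 against NC, 1.48 versus GelMA and 1.96 versus CTS, where that of all genes tested was −0.11, −0.04 and −0.03. The 3 comparisons share the PLA libraries and so are not independent of each other. Without NC replicate 2 the count against NC remained 6, and the count against GelMA was 4 to 6 when 1 library was left out.

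**Figure D1:**
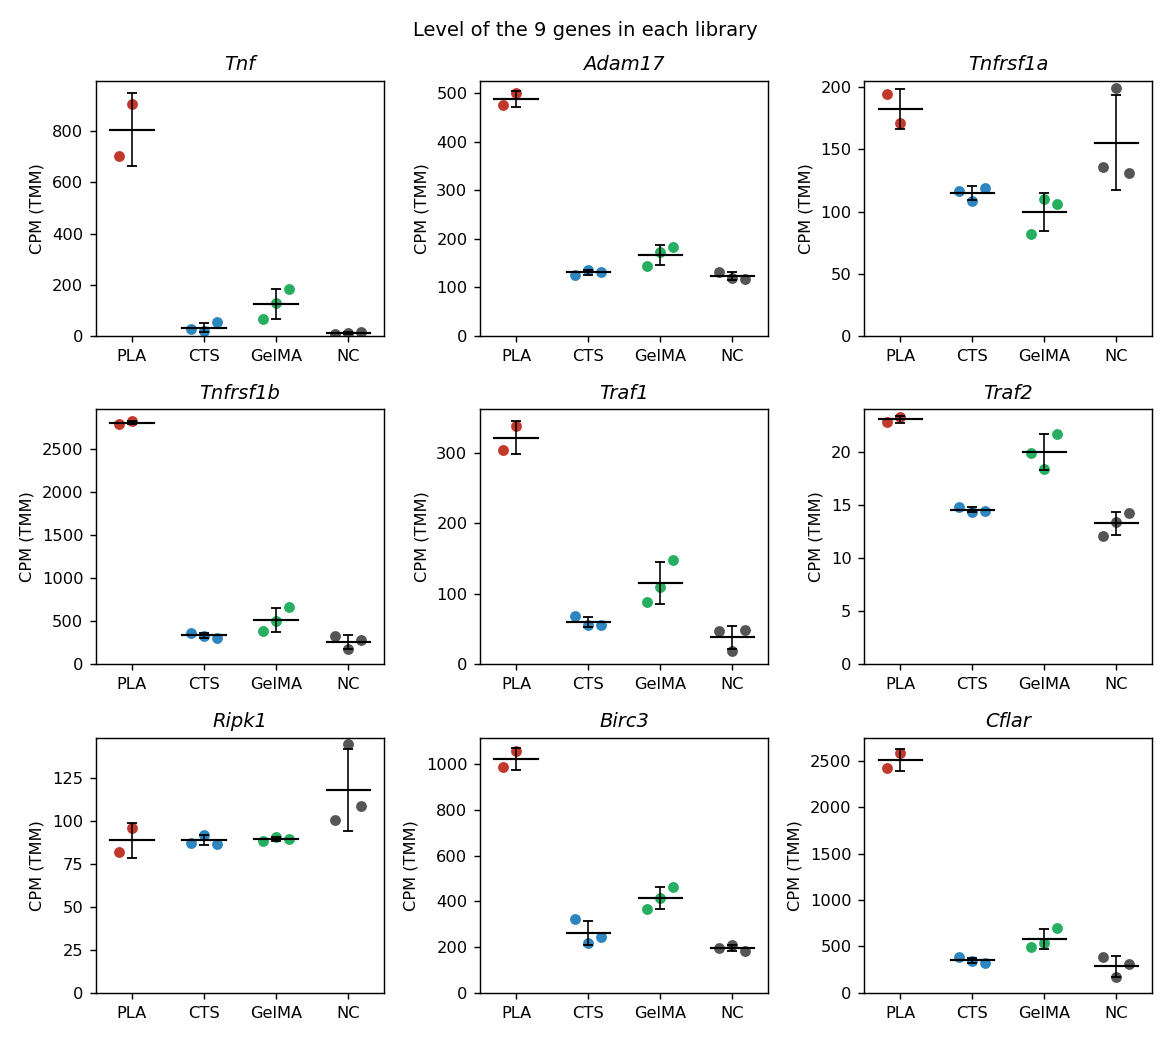
CPM after TMM scaling (linear axes from 0) of each of the 9 genes in each library, in the order PLA, CTS, GelMA and NC; points are libraries, long bars are means and whiskers are SD (n = 2 in PLA, n = 3 in each other group). Both PLA libraries of Tnf (705 and 907 CPM) lie above every other library. Those of Ripk1 (81.5 and 95.9 CPM) lie on either side of the CTS and GelMA libraries.

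Tnf itself gave the largest differences of the 9 genes. It was measured at 705 and 907 CPM in PLA, at 26.1, 18.9 and 53.9 CPM in CTS, at 67.1, 127 and 182 CPM in GelMA and at 9.08, 11.2 and 15.4 CPM in NC. The 4 groups did not overlap, in the order PLA, GelMA, CTS and NC. The log2 fold change in PLA was 6.08 ± 0.55 against NC (SE, adjusted p = 9.33e-05), 2.69 ± 0.48 against GelMA (adjusted p = 0.00840) and 4.61 ± 0.51 against CTS (adjusted p = 0.000415), all by edgeR. Without PLA replicate 2 the call against GelMA was lost (adjusted p = 0.0656), with the lone PLA library assumed to vary like the other groups. Relative to Ptprc in the same library, Tnf stood at an FPKM ratio of 2.10 and 2.61 in PLA, 0.0623, 0.0485 and 0.158 in CTS, 0.152, 0.340 and 0.439 in GelMA and 0.0189, 0.101 and 0.0402 in NC. The PLA libraries were again above all others on this ratio, which was not tested. It rests on 1 leukocyte marker, the one sorted against. In PLA against NC the log2 fold change of Ptprc was 0.07. Other leukocyte markers ran from −8.02 (Cd52, not called) to 1.99 (Cd53, called).

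The sheddase gene Adam17 followed Tnf in PLA with a smaller change. It stood at 476 and 501 CPM in PLA, at 126, 136 and 132 in CTS, at 144, 174 and 183 in GelMA and at 132, 120 and 117 in NC. PLA lay above all other libraries. The log2 fold change was 1.99 ± 0.15 against NC (adjusted p = 5.17e-05), 1.55 ± 0.15 against GelMA (adjusted p = 0.000488) and 1.89 ± 0.15 against CTS (adjusted p = 7.87e-05). Of 8 genes that regulate or resemble the sheddase, 0 were called in either direction in these comparisons, and 1 was called higher against GelMA without NC replicate 2. Among them Rhbdf2, which carries Adam17 to the surface of immune cells, had a log2 fold change of 0.58 against NC, and Timp3, the inhibitor of Adam17, of −0.46, and neither passed the test. The medians of this list were −0.09 against NC, 0.34 versus GelMA and 0.37 versus CTS.

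The receptors differed from each other. Tnfrsf1b was measured at 2788 and 2817 CPM in PLA, at 368, 333 and 310 in CTS, at 383, 500.4 and 664 in GelMA and at 324, 174 and 282 in NC. Its log2 fold change in PLA was 3.43 ± 0.30 against NC (adjusted p = 7.09e-05), 2.44 ± 0.29 against GelMA (adjusted p = 0.0010) and 3.06 ± 0.29 against CTS (adjusted p = 0.000168). Tnfrsf1a was measured at 194 and 171 CPM in PLA, at 117, 109 and 119 in CTS, at 82.0, 110 and 106 in GelMA and at 136, 199 and 131 in NC. PLA lay above CTS and GelMA and overlapped NC, whose replicate 2 was the highest library. Its log2 fold change was 0.23 ± 0.21 against NC (adjusted p = 0.500), 0.88 ± 0.21 against GelMA (adjusted p = 0.0285) and 0.67 ± 0.21 against CTS (adjusted p = 0.0578), none beyond the threshold of 1. Against NC it changed sign, to −0.07, when libraries were scaled by their totals alone, a scaling that moved the median of all genes in PLA against NC by −0.34.

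On the FPKM scale, which allows genes to be compared, Tnfrsf1a was the highest of the 9 in NC (58.8 ± 3.96, SD, n = 3) with Tnfrsf1b next (49.4 ± 20.2), a pair that did not differ beyond its spread. In PLA Tnfrsf1b was the highest (409.7 ± 0.0671, n = 2), Tnf was the second (370.4 ± 63.0) and Tnfrsf1a the seventh (56.1 ± 5.40). Tnf was the seventh of the 9 in CTS, the third in GelMA and the eighth in NC. Traf2 was the lowest of the 9 in every group, at 4.35 FPKM in PLA, 3.83 in CTS, 5.48 in GelMA and 3.16 in NC.

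The balance within 3 pairs of related genes was tested over the 4 groups by an exact permutation test of the log2 FPKM ratio, two-sided in effect because it uses an F statistic over all 92400 assignments of the libraries. P-values were adjusted over the 3 ratios. Swapping the labels of the groups with 3 libraries leaves F unchanged, so the smallest unadjusted p of this permutation test is 6.49e-05. The ratio of Tnfrsf1b to Tnfrsf1a reached that floor. The ratio of Tnfrsf1b to Tnfrsf1a was 6.84 and 7.84 in PLA, 1.5, 1.46 and 1.24 in CTS, 2.22, 2.16 and 2.98 in GelMA and 1.13, 0.416 and 1.02 in NC (exact permutation adjusted p = 0.000195). The groups did not overlap. The ratio of Traf1 to Traf2 was 22.8 and 24.8 in PLA, 7.89, 6.68 and 6.69 in CTS, 7.63, 10.2 and 11.6 in GelMA and 6.76, 2.38 and 5.77 in NC (exact permutation adjusted p = 0.000390). Here PLA was apart and the other groups partly overlapped. Single pairs of groups were not tested on these ratios.

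**Figure D2:**
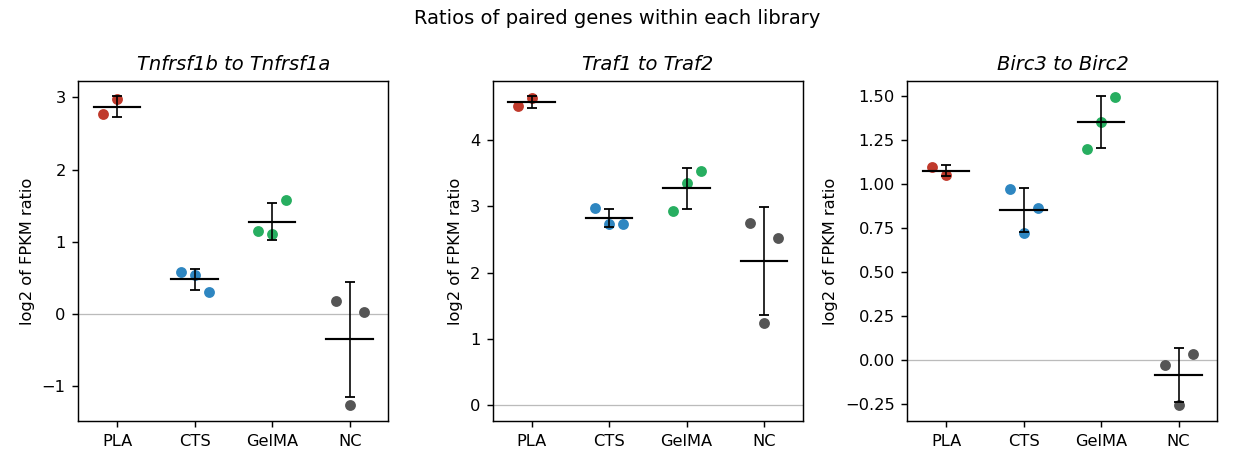
Log2 of the FPKM ratio of Tnfrsf1b to Tnfrsf1a, Traf1 to Traf2 and Birc3 to Birc2 in each library of PLA, CTS, GelMA and NC; points are libraries, long bars are means and whiskers are SD (n = 2 in PLA, n = 3 elsewhere). PLA is highest for the receptors and the Traf pair (geometric means 7.32 and 23.8), whereas GelMA is highest for Birc3 to Birc2 (2.55).

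Among the adaptors Traf1, an NF-kB target that pairs with Traf2, was the one called. It stood at 305 and 338 CPM in PLA, at 68.3, 56.1 and 56.5 in CTS, at 88.6, 110 and 148 in GelMA and at 47.8, 18.7 and 48.2 in NC. The groups did not overlap, in the order PLA, GelMA, CTS and NC. The log2 fold change in PLA was 3.07 ± 0.37 against NC (adjusted p = 0.000488), 1.48 ± 0.36 against GelMA (adjusted p = 0.0310) and 2.41 ± 0.36 against CTS (adjusted p = 0.00221). The call against GelMA was lost when either PLA library, GelMA replicate 1 or 2, or CTS replicate 1 was left out (adjusted p of 0.0507 to 0.170) and with library size alone (log2 fold change 0.94).

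Traf2 and Ripk1, the adaptors that the receptors bind, were not called in PLA. Traf2 stood at 22.9 and 23.4 CPM in PLA, at 14.9, 14.4 and 14.5 in CTS, at 19.9, 18.4 and 21.8 in GelMA and at 12.1, 13.5 and 14.3 in NC. Its log2 fold change in PLA was 0.80 ± 0.17 against NC (adjusted p = 0.0107), 0.21 ± 0.17 against GelMA (adjusted p = 0.485) and 0.67 ± 0.17 against CTS (adjusted p = 0.0262), with the first and the last past the p threshold and under the fold threshold. With library size alone the value against GelMA changed sign, to −0.33, where the median of all genes moved by −0.54. Ripk1 stood at 81.5 and 95.9 CPM in PLA, at 87.2, 91.9 and 86.5 in CTS, at 88.4, 90.6 and 89.1 in GelMA and at 100.2, 145 and 108 in NC. Every NC library lay above every scaffold library, and no comparison of Ripk1 was called: the log2 fold change in PLA was −0.41 ± 0.17 against NC (adjusted p = 0.145), −0.01 ± 0.17 against GelMA (adjusted p = 0.984) and 0.00 ± 0.17 against CTS (adjusted p = 0.994). The value of Ripk1 depended on scaling. On FPKM, which has no composition factor, both PLA libraries (12.1 and 14.1) lay below all others, and the value against NC reached −0.72 among the alternatives.

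Birc3 and Cflar, which hold back cell death, were higher in PLA. Birc3 stood at 986 and 1055 CPM in PLA, at 322, 220 and 244 in CTS, at 367, 415 and 464 in GelMA and at 196, 210 and 181 in NC. The groups did not overlap. Its log2 fold change was 2.38 ± 0.20 against NC (adjusted p = 5.76e-05), 1.30 ± 0.19 against GelMA (adjusted p = 0.00314) and 1.96 ± 0.19 against CTS (adjusted p = 0.000203), and the value against GelMA was under the fold threshold, at 0.76, with library size alone. Its neighbour in function, Birc2, also rose in PLA, by 1.21 against NC, 1.58 versus GelMA and 1.75 versus CTS on the log2 scale (adjusted p = 0.00147, 0.000768 and 0.000232). The ratio of Birc3 to Birc2 was 2.14 and 2.07 in PLA, 1.96, 1.65 and 1.82 in CTS, 2.30, 2.55 and 2.82 in GelMA and 0.982, 0.837 and 1.02 in NC (exact permutation adjusted p = 0.000292). The groups did not overlap, in the order GelMA, PLA, CTS and NC.

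Cflar stood at 2420 and 2588 CPM in PLA, at 382, 342 and 327 in CTS, at 496, 541 and 700.1 in GelMA and at 383, 166 and 311 in NC. PLA and GelMA were each apart from all other libraries, and CTS and NC overlapped. Its log2 fold change in PLA was 3.13 ± 0.31 against NC (adjusted p = 0.000170), 2.11 ± 0.30 against GelMA (adjusted p = 0.00269) and 2.84 ± 0.31 against CTS (adjusted p = 0.000347). Its value is uncertain because the lncRNA LOC100909946 lies within its span in RefSeq and moved with it, by 4.74 against NC, 2.72 versus GelMA and 4.52 versus CTS, and the sources used here do not say whether reads were counted by strand. Casp8, which encodes caspase-8 and overlaps the end of Cflar, was not called (log2 fold change 0.65 against NC, adjusted p = 0.173).

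**Figure D3:**
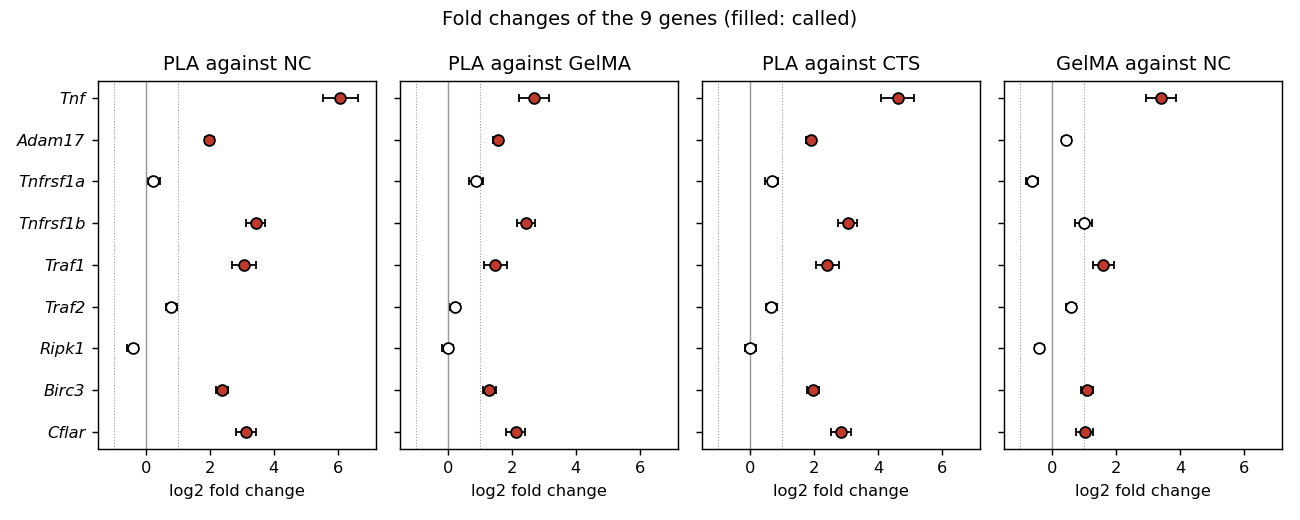
Log2 fold change of the 9 genes in PLA against NC, GelMA and CTS and in GelMA against NC; points are edgeR estimates, whiskers are SE, dotted lines mark −1 and 1, and filled points were called. Tnf has the largest value in each panel (6.08, 2.69, 4.61 and 3.39), and the points of Tnfrsf1a, Traf2 and Ripk1 are open in all 4.

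GelMA differed from NC in 4 of the 9 genes, all higher: Tnf, Traf1, Birc3 and Cflar. Of all genes tested, 5.03% were called higher and 3.21% lower. The log2 fold change was 3.39 ± 0.47 for Tnf (adjusted p = 0.00213), 1.59 ± 0.33 for Traf1 (adjusted p = 0.0152), 1.09 ± 0.18 for Birc3 (adjusted p = 0.00490) and 1.01 ± 0.28 for Cflar (adjusted p = 0.0436). Tnfrsf1b (0.99 ± 0.26, adjusted p = 0.0389) lay just under the fold threshold, and Adam17 (0.44 ± 0.14, adjusted p = 0.0662) and Tnfrsf1a (−0.64 ± 0.19, adjusted p = 0.0553) did not pass the test. The calls other than that of Tnf depended on single libraries: without NC replicate 1 the count was 5, without GelMA replicate 3 it was 1, without GelMA replicate 2 or without NC replicate 3 it was 2, and without NC replicate 2 the value of Cflar was 0.74. The call of Cflar was lost in 16 of 21 alternatives, 10 of them the omission of 1 library. It was under the fold threshold with RLE size factors (0.95), DESeq2 (0.95) and no filter (0.97), and past the p threshold neither with edgeR on the 2 groups compared (adjusted p = 0.162) nor with the replicate block (adjusted p = 0.0693).

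CTS differed from NC in 0 of the 9 genes, where 0.155% of all genes tested were called higher and 0.0222% lower, and the log2 fold change of Tnf was 1.47 (adjusted p = 0.211). CTS differed from GelMA in 0 of the 9, where 0.416% were called higher and 1.32% lower, and that of Tnf was −1.93 (adjusted p = 0.0562). DESeq2 called Tnf in both, higher in CTS than in NC and lower in CTS than in GelMA.

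Beyond the 9 genes, a list of 17 genes grouped as deubiquitinases and brakes also held genes higher in PLA. Of these 17 genes, 9 were higher against NC, 8 versus GelMA and 9 versus CTS, with 0 lower. Among all genes tested, 8.32%, 4.61% and 6.42% were called higher in the same order. From the list, 7 were higher in all 3 comparisons (Nfkbia, Nfkbib, Nfkbiz, Tax1bp1, Tnfaip3, Tnip1 and Zc3h12a). Tnfaip3, the ubiquitin-editing enzyme A20, averaged 4803 ± 190.3 CPM in PLA (SD, n = 2), 927 ± 144 in CTS, 1532 ± 208 in GelMA and 597 ± 33.7 in NC (n = 3 each). Its log2 fold change in PLA was 3.01 against NC, 1.65 versus GelMA and 2.37 versus CTS. Nfkbia, which holds NF-kB in the cytoplasm, rose by 2.82, 1.98 and 2.41 in the same order. The median of the list was 1.21 against NC, 0.87 versus GelMA and 1.03 versus CTS. Over all alternatives the counts were 7 to 11, 6 to 9 and 6 to 11.

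Of 5 NF-kB subunits, 4 were higher against NC, 1 versus GelMA and 3 versus CTS. For this list and the next, the shares of all genes tested called higher were 8.32%, 4.61% and 6.42%. Nfkb2, the precursor of p52 in the non-canonical arm, rose in all 3 (2.61, 1.87 and 2.50), and Rela, the main partner of the canonical dimer, was not called (0.55 against NC, adjusted p = 0.0751). Library size alone left 2 of the subunits called against NC and 1 against CTS, and edgeR on the 2 groups compared left 1 against NC. Of 13 receptor complex genes and ubiquitin ligases, 3 were higher in each PLA comparison (Birc2, Traf3 and Traf6), with list medians of 0.08 against NC, −0.33 versus GelMA and 0.03 versus CTS. Traf3, which restrains the non-canonical arm, rose by 1.99, 1.14 and 1.75. Tradd, the first adaptor of Tnfrsf1a, had −0.03 against NC (adjusted p = 0.969), and Fadd, the adaptor of caspase-8, had −0.16 (adjusted p = 0.881). With library size alone, 1 receptor complex gene was higher and 2 were lower in PLA against GelMA.

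Of 21 kinases, 3 were higher and 1 lower against NC, 4 were higher and 0 lower against GelMA, and 3 were higher and 0 lower against CTS. Map3k8 (2.28, 2.24 and 2.31), Mapkapk2 (1.80, 1.71 and 1.71) and Tbk1 (2.15, 1.39 and 1.89) were higher in all 3 comparisons, and Mapk14, which encodes p38 alpha, was lower against NC (−1.03, adjusted p = 0.0270), a call that was lost without NC replicate 1 or without PLA replicate 1 or 2. With library size alone 2 kinases were higher and 4 lower in PLA against GelMA, and without CTS replicate 3, 1 was lower against CTS. Of 14 genes of the cell death arm, 5 were higher against NC, 3 versus GelMA and 3 versus CTS. Those called in all 3 act on both sides: Bcl2a1 (3.87, 2.02 and 2.77) and Bcl2l1 (2.68, 2.13 and 2.50) protect mitochondria, and Bax (2.22, 1.16 and 1.75) permeabilises them. Without PLA replicate 1 the count against NC was 3. Lower calls were 0 in all 3 comparisons, with 2 against GelMA when library size alone was used and 1 in each comparison without NC replicate 2.

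**Figure D4:**
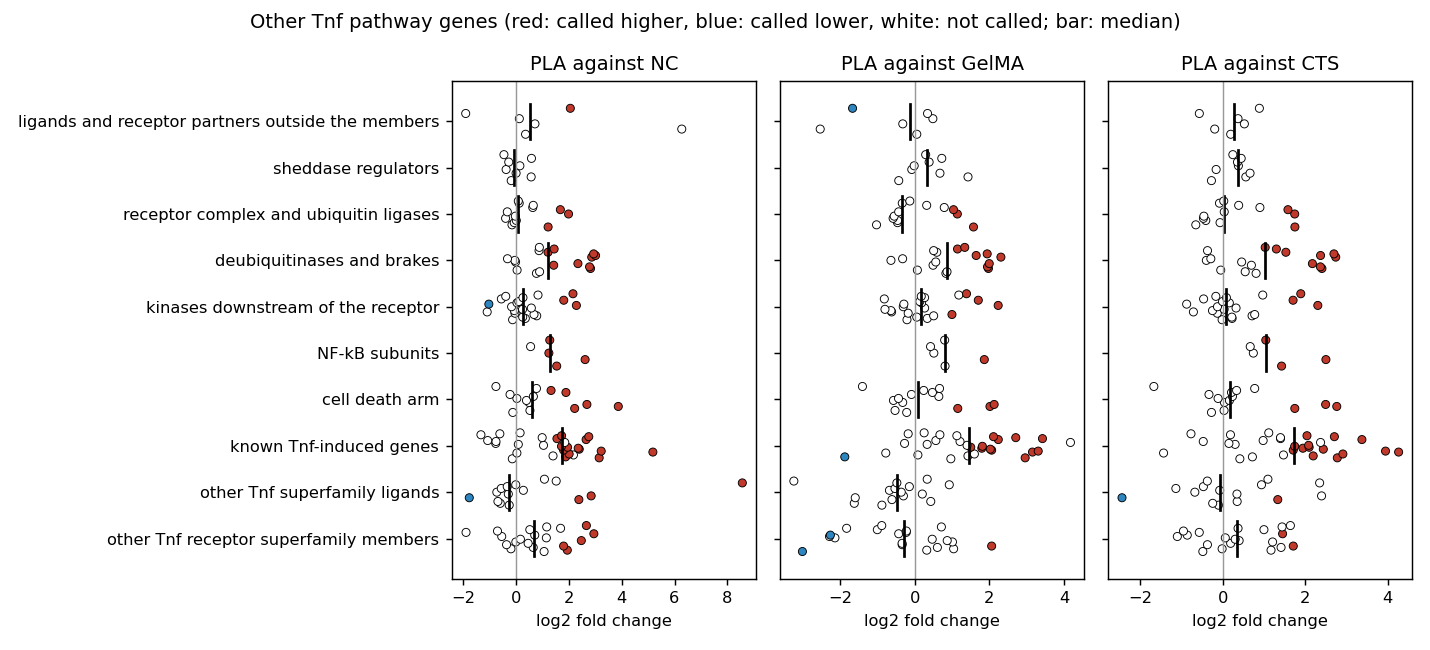
Log2 fold change in PLA against NC, GelMA and CTS for the other genes of the pathway, grouped by list; each point is a gene, red was called higher, blue lower and white neither, and the bar is the list's median. Against NC, where 8.32% of all genes tested were called higher, 9 of 17 genes listed as deubiquitinases and brakes and 14 of 28 known Tnf-induced genes are red, and the sheddase regulators hold 0. The ligand beyond 8 is Tnfsf4, with 0 counts in NC, whose fitted value is no bound.

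Of 28 genes known to be induced by Tnf, 14 were higher and 0 lower against NC, 12 were higher and 1 lower against GelMA, and 14 were higher and 0 lower against CTS. The medians were 1.72, 1.47 and 1.73. The 10 higher in all 3 were Ccl20, Cxcl2, Edn1, Fas, Gadd45b, Gch1, Icam1, Ier3, Ptgs2 and Sod2. Cxcl2, a chemokine that draws neutrophils, averaged 17653 ± 636 CPM in PLA (n = 2), 919 ± 209 in CTS, 1980 ± 519 in GelMA and 487 ± 242 in NC (n = 3 each), with log2 fold changes of 5.18, 3.16 and 4.26. Edn1, a vasoconstrictor peptide, rose by 3.22, 3.31 and 3.95, and Ccl5 was the gene lower against GelMA (−1.87, adjusted p = 0.0377), a call that was lost when any GelMA or PLA library was left out. Over the alternatives the counts higher were 7 to 19, 7 to 18 and 9 to 18, and 19, 18 and 18 without NC replicate 2. Against NC the count was 9 without PLA replicate 1 and 7 without PLA replicate 2, against GelMA it was 7 without PLA replicate 2, and against CTS it was 9 without CTS replicate 1, PLA replicate 1 or PLA replicate 2.

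The rest of the superfamily was more mixed. Of 15 other ligands, 3 were higher and 1 lower against NC, 0 were called against GelMA, and 1 was higher and 1 lower against CTS. Tnfsf10, which encodes Trail, was the one lower (−1.77 against NC and −2.44 against CTS), and Faslg was higher (2.38 and 1.34). These counts rested on single libraries: without NC replicate 2 they were 5 higher and 2 lower against NC, 2 lower against GelMA and 3 higher against CTS, and without NC replicate 1, 1 was lower against GelMA and 2 were higher against CTS. No ligand was lower against NC without NC replicate 3, none was lower against NC or called against CTS without PLA replicate 1 or 2, and none was higher against CTS without CTS replicate 1 or 2 or with library size alone. Tnfsf4 had 0 counts in the 3 NC libraries together, against 78 in the 2 PLA libraries. Of 20 other receptors, 5 were higher against NC, 1 was higher and 2 lower against GelMA, and 2 were higher against CTS, with Fas, the death receptor, in all 3 (1.80, 2.06 and 1.71). Cd27 was lower against GelMA (−3.00, adjusted p = 0.0103). Over the alternatives 1 to 6 receptors were higher against NC, 0 to 7 were lower against GelMA and 0 to 6 were higher against CTS. Against NC, 3 were higher without PLA replicate 1 and 2 without PLA replicate 2. The receptors lower against GelMA numbered 4 without NC replicate 2, 0 without PLA replicate 1, and 1 without PLA replicate 2, CTS replicate 3 or any GelMA library, and the 1 higher was lost without GelMA replicate 2 or PLA replicate 2. Those higher against CTS numbered 6 without NC replicate 2, 4 without NC replicate 1 or CTS replicate 3, 1 without CTS replicate 2 or any GelMA library, and 0 without CTS replicate 1, without PLA replicate 1 or 2 or with library size alone. In GelMA against NC, 7 of the 20 receptors and 4 of the 15 ligands were higher and 0 were lower, the ligands numbering 2 to 6 when 1 library was left out. There 5.03% of all genes tested were called higher and 3.21% lower. Of 6 related ligands and receptors listed separately, 1 was higher against NC, 1 was lower against GelMA and 0 were called against CTS. Both calls were of Tnfrsf14 (2.05 and −1.66), and the second was lost without PLA replicate 1 or 2. Lta, the ligand that shares both receptors with Tnf, had 16 counts in PLA, 35 in CTS, 195 in GelMA and 0 in NC and was not called.

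Over the 11 libraries, the 5 genes most like Tnf by Pearson correlation of log2 CPM, out of 9332 screened, were Scimp (0.994), Resf1 (0.986), Bax (0.985), Dusp16 (0.984) and Fkbp15 (0.984). Those most like Tnfrsf1b were LOC120100761 (0.997), Snx3 (0.994), Cflar (0.994), Ebi3 (0.994) and Ifnar1 (0.994). Those most like Tnfrsf1a were different genes: Pelo (0.963), Fosl1 (0.962), Jdp2 (0.956), Rlim (0.949) and Atf4 (0.938). Between the 9 genes, Tnfrsf1a had a correlation of 0.19 with Tnf and 0.36 with Tnfrsf1b, and Tnfrsf1b had 0.92 with Tnf. These correlations describe libraries that fall into 4 groups and share the group differences above.

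Markers of other cells and of handling also differed between the groups, in orders that varied from list to list. Their part in the results above was not tested. For the marker counts below, 8.32% of all genes tested were called higher and 4.01% lower in PLA against NC. The shares were 4.61% and 1.47% against GelMA, 6.42% and 3.53% against CTS, and 5.03% and 3.21% in GelMA against NC. Summed markers of monocytes and macrophages, which make Tnf, ran from 4803 to 5409 CPM in PLA, 10734 to 13277 in CTS, 5770 to 9293 in GelMA and 2777 to 11225 in NC. On this sum the PLA libraries lay below all CTS and GelMA libraries. Of these 13 markers, 5 were higher and 0 lower in PLA against NC, 0 were higher and 2 lower against GelMA, and 2 were higher and 1 lower against CTS, and in GelMA against NC 9 were higher. Their median log2 fold change in PLA was 1.15 against NC, −0.89 versus GelMA and 0.45 versus CTS. Against CTS the sum and the median thus went opposite ways. The 6 markers of leukocytes of all kinds summed to 3558 to 3616 CPM in PLA, 2662.5 to 3252 in CTS, 2998 to 3236.5 in GelMA and 979 to 3683 in NC. On that sum the PLA libraries lay above all CTS and GelMA libraries. Their median log2 fold change in PLA was 0.04 against NC, −0.22 versus GelMA and −0.06 versus CTS. Cd53 was the 1 called, higher against NC (1.99) and CTS (1.59). Neutrophil markers, 9 genes, summed to 8768 to 9341 CPM in PLA, 27516 to 46751 in CTS, 4853 to 11879 in GelMA and 9056 to 67276 in NC. Summed T and natural killer cell markers ran from 266 to 303 CPM in PLA, 137 to 274 in CTS, 671 to 742 in GelMA and 76.5 to 150 in NC. Summed B cell markers ran from 26.9 to 43.0 CPM in PLA, 66.1 to 102 in CTS, 232 to 337 in GelMA and 17.8 to 36.6 in NC, and all 5 of them were lower in PLA against GelMA and higher in GelMA against NC. Mast cell markers summed to 21.2 to 33.1 CPM in PLA, 200.2 to 282 in CTS, 24.9 to 34.6 in GelMA and 193 to 936 in NC, and 3 of these 4 were lower in PLA against NC and in GelMA against NC. The 6 endothelial markers summed to 266 to 290 CPM in PLA, 157 to 335 in CTS, 165 to 184 in GelMA and 130 to 276 in NC. In PLA, Vwf was higher against NC (1.47), Cdh5 (1.61) and Vwf (1.58) were higher against GelMA, and 0 were called against CTS. Of 8 genes known to respond to tissue handling, 3 were higher in each PLA comparison (Junb, Egr1 and Dusp1), and their sum ran from 14204 to 15093 CPM in PLA, 5970 to 10087 in CTS, 7315 to 8264 in GelMA and 6373 to 11985 in NC. Of the 74 markers, 1 was at 0 in every library of a group, the leukocyte marker Cd52 in PLA.

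**Figure D5:**
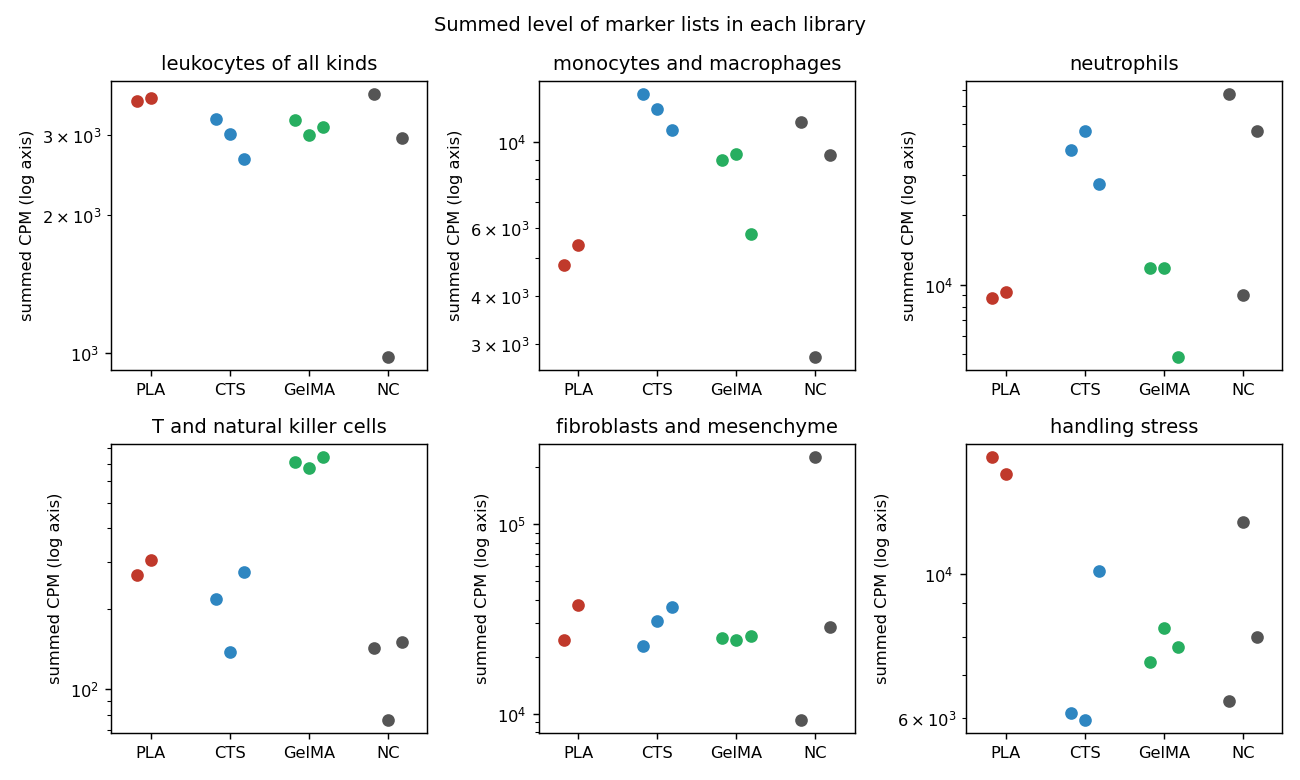
Summed CPM (log axes) of 6 marker lists in each library of PLA, CTS, GelMA and NC; each point is a library. The handling genes are highest in both PLA libraries (14204 and 15093 CPM), the T and natural killer cell markers are highest in GelMA, and NC replicate 2 is the lowest for leukocytes (979 CPM).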

How the data were processed

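RNA-seq was measured in 11 libraries of Cd45- cells. Per the labels the authors used fastp for trimming, HISAT2 for alignment against mRatBN7.2 and HTSeq for counting, with no versions stated; strand handling is not given in the sources used here. The deposited count table holds whole reads per gene, and the FPKM values the authors deposited are counts per gene length and per library total, as recomputed for 205408 of 205408 values (relative tolerance 0.001).

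Counts were fitted in R 4.3.3 with edgeR 4.0.16: filterByExpr (minimum count 10), TMM, 1 robust quasi-likelihood model of the 4 groups, and an SE taken as the log2 fold change divided by the square root of F. Alternatives used DESeq2 1.42.0, limma 3.58.1 on log2(FPKM + 1) or log2(FPKM + 0.1), other scalings, no filter, no fold threshold, 2 groups alone, a block for replicate number, and omission of each library in turn. The counts of list genes under these alternatives were added after seeing the data. Steps were tested on simulated data. The 9 genes and all lists were chosen with earlier results of these data known. All 9 genes, fixed list genes, called list genes with the largest changes or called in all 3 PLA comparisons, and the 5 best correlated genes were named; Rela, LOC100909946, Cd52 and the 3 handling genes were named after their values were seen. Sequences came from RefSeq GRCr8.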

Additional observations from a re-analysis of the deposited data

How the results depend on the processing

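The counts of the 9 genes in the 3 PLA comparisons stayed within 1.5 times under every alternative run. They were 6 to 7 against NC, 6 to 7 against CTS and 4 to 7 against GelMA. Leaving out 1 library gave 4 to 6 against GelMA. The 3 ratio tests stayed past the threshold. With edgeR on the 2 groups compared, 2 genes were higher in GelMA than in NC, and leaving out 1 library gave 1 to 5. DESeq2 called 1 gene, Tnf, higher in CTS than in NC. Tnf was also the 1 gene called lower in CTS than in GelMA with RLE size factors, edgeR on 2 groups, DESeq2, limma with either pseudocount and the filter, and the replicate block, and leaving out 1 library gave 0 to 1. Small uncalled values changed sign: Tnfrsf1a in PLA against NC (−0.068 with library size alone, −0.068 and −0.069 with limma), Traf2 in PLA against GelMA (−0.33 with library size alone, −0.27 and −0.32 with limma), and Ripk1 in PLA against GelMA (0.034 with RLE or DESeq2, 0.011 with 2 groups, −0.14 to 0.095 leaving out 1 library), in PLA against CTS (−0.48 with library size alone, −0.050 without the filter, −0.039 with 2 groups, −0.45 and −0.48 with limma, −0.027 with the replicate block, −0.12 to 0.11 leaving out 1 library) and in CTS against GelMA (0.013 without the filter, −0.019 to 0.039 leaving out 1 library). The FPKM table carries no composition factor, so limma shares its scaling with library size alone. Libraries of the same number did not deviate together (correlations −0.09 to 0.09 over 15 pairs), so the numbers were not used as pairs; the replicate block ended 1 call of the 9 genes, of Cflar in GelMA against NC, which 16 of 21 alternatives ended. With 2 PLA libraries, a value that rests on 1 of them has no further check.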
